A study of Mus musculus with 136 samples.

Results

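The change that normal mouse embryos undergo between 5–6 and 7–9 somite pairs was followed in 33 whole embryos of the non-obese diabetic (NOD) strain, taken from normoglycemic dams at 8.5 days of gestation. They are the 33 embryo libraries of normal pregnancies among the 136 libraries of the series, chosen by the condition and tissue in their labels. The 1 further library of such an embryo, labelled as a duplicate and batch control, was left out. By the somite pairs counted at dissection, 17 embryos were at the earlier stage (11 with 5 and 6 with 6 pairs) and 16 at the later stage (7 with 7, 4 with 8 and 5 with 9 pairs). The NOD strain becomes hyperglycemic spontaneously with age, so the normal group stands for dams of a diabetes-prone strain whose blood glucose at dissection was 105 to 164 mg/dl at the earlier and 109 to 135 mg/dl at the later stage. The embryos came from 10 litters, read from the dam code that opens each library title, since no label names the litter. Each code carried a maternal glucose value of its own. All 10 contributed earlier embryos and 7 also later ones. Both sexes were present, with 9 males and 8 females at the earlier and 9 males and 7 females at the later stage. For comparison, the report uses the 33 embryos from diabetic NOD dams, staged in the same way. It also uses the 33 visceral yolk sacs that share a conceptus code with the normal embryos, staged by the somite pairs of that embryo. For code N28M07E the embryo is labelled male and the yolk sac female, and sex-linked genes matched both labels. Whether these are tissues of the same conceptus is therefore uncertain, and the pair was kept.

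RNA was counted with a 3′ end sequencing method in which each RNA molecule carries a unique molecular identifier. Totals were 1762872 to 5658850 counts per library (median 2695660) at the earlier and 1687699 to 3348745 (median 2153047) at the later stage. The two-sided permutation test of the totals gave p = 0.0332 (0.122 adjusted over 11 library measures). Sex-linked genes matched the sex label in 33 of 33 libraries, and 8 of 8 embryo markers, among them Nkx2-5, Tcf15 and Sox2, had counts in every library. Levels are given in CPM, that is, each count relative to its library total, scaled by the trimmed mean of M values (TMM), and changes are log2 fold changes of the later over the earlier stage with their standard errors. Unless another test is named, p is adjusted by Benjamini and Hochberg over all genes tested with edgeR's quasi-likelihood test, and a gene with an adjusted p under 0.05 is called. Littermates are not independent, and where the fit with the litter as a block changes the call of a named gene its p is given, as is the count of a list that it moves by more than 1.5-fold. The gene lists were chosen with earlier results of these data known, and their shares are given as description without a test. In whole embryos, a change in the number of cells of a type and a change in RNA per cell cannot be told apart.

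An embryo with 5 to 9 somite pairs is folding its neural plate, which has just begun or is about to close into the neural tube, its heart tube is beginning to beat, and the trunk is being added segment by segment from the tail bud. Somites are blocks of mesoderm that bud off the presomitic mesoderm in a regular rhythm, which makes their number a clock of development. Primitive red blood cells arise in the blood islands of the yolk sac and enter the embryo when the circulation begins. Hox genes are switched on in the order in which they lie along their clusters, so that genes with higher paralogue numbers come on later and farther to the tail.

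Of 10696 genes tested, 656 were higher (6.13%) and 959 lower (8.97%) at the later stage. The changes were small. The median log2 fold change was 0.452 among genes called higher and -0.343 among genes called lower, and 29 of the first and 2 of the second changed by at least 2-fold. None of the called genes, and none of all genes tested, separated the groups without overlap. Within the 7 litters that held both stages, 243 of the genes called higher and 439 of the genes called lower moved in the same direction in all 7, as did 1324 of all 10696 genes tested (12.4%) in one or the other direction. With the litter as a block, 1011 genes were called higher (9.45%) and 1205 lower (11.3%), and these included 476 of the 656 and 697 of the 959.

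The number of calls did not grow with the distance in somite number. Such a count depends on the number, litters and spread of the embryos, so it does not measure the size of the changes. Means of some genes given below, such as Hoxa9 and Slc7a3, moved one way over all somite numbers, while those of others, such as Hbb-y, did not. Embryos with 7 pairs differed from those with 6 in 582 genes called higher (5.44%) and 516 called lower (4.82%), with 13 embryos in this contrast. Embryos with 8–9 pairs set against those with 5, 20 embryos in all, differed in 40 genes called higher (0.374%) and 20 called lower (0.187%). Embryos with 6 pairs came from 4 litters and embryos with 7 pairs from 5, of which 2 litters, N28M05 and N28M06, held both. Litter and somite number can thus not be told apart in much of this contrast. Litters were also uneven for 8–9 against 5 pairs, where N28M05 supplied embryos with 8 and 9 pairs but not with 5. The counts also moved when single litters were left out. Without N28M06, which held 4 earlier and 3 later embryos, 200 genes were called higher and 330 lower, without N28M05 375 and 533, and without N24M21 407 and 718. With the counts summed per litter and stage, 56 genes were called higher and 68 lower. That fit compared 10 earlier with 7 later sums and held no litter term, so it did not use the pairing of stages within litters. Its sums also held unequal numbers of embryos.

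The embryonic globin genes rose more than any other gene tested. Hbb-y encodes the beta-type chain, Hba-x the zeta alpha-type chain and Hbb-bh1 a further beta-type chain of the hemoglobins of primitive red cells. Hbb-y and Hbb-bh1 (identifiers ENSMUSG00000052187 and ENSMUSG00000052217) lie in the beta-globin cluster on the minus strand of chromosome 7, at 103851749 to 103853216 and at 103841637 to 103843164, and Hba-x (ENSMUSG00000055609) on the plus strand of chromosome 11 at 32276400 to 32278116 (build GRCm38). The promoter windows of Hbb-y and Hba-x, and that of the heart gene Nppa described further on, are shown because these genes lead the blood and heart changes. Each holds 250 bases before and 50 after the transcription start, 5′ to 3′ on the strand of the gene, from RefSeq on GRCm38.p6 (chr7:103853158-103853457, minus strand, chr11:32276350-32276649, plus strand, and chr4:148000472-148000771, plus strand).
Hbb-y: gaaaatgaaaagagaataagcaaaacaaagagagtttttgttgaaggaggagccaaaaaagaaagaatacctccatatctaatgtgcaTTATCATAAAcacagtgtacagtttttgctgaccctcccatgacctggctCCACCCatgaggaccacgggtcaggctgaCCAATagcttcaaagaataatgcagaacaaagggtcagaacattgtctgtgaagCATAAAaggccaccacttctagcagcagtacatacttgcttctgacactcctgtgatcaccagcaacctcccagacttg
Hba-x: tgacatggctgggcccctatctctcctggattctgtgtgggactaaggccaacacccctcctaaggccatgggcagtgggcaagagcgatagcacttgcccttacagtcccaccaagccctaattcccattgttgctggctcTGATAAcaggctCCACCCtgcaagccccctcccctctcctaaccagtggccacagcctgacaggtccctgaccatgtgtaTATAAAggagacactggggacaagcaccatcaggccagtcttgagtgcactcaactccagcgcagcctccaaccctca
Nppa: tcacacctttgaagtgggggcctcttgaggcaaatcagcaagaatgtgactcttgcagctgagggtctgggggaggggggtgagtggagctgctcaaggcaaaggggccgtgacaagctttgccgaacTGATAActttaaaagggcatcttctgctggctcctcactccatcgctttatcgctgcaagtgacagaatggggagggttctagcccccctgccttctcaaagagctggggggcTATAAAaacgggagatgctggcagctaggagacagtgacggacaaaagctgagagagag
Capitals mark every match, on either strand, to TGATAA (a form of the GATA factor motif), CCACCC (the core of the CACC box), TATAAA (the TATA box), its variant CATAAA, and CCAAT (a promoter element of many genes). Of these, TGATAA was found in all 3 windows, 162 bases before the start on the other strand in Hbb-y, 108 before it in Hba-x and 122 before it in Nppa, and in 9.05% of all 32851 promoter windows. CCACCC stood 112 and 96 bases before the start in Hbb-y and Hba-x and in 31.5% of all windows. TATAAA occurred 28 bases before the start in Hba-x and 9 before it in Nppa (13.6% of all windows), and CATAAA 29 and 158 bases before it in Hbb-y (11.9%), where the more distant copy overlaps the TGATAA match by 2 bases. CCAAT stood 83 bases before the start in Hbb-y and in 37.4% of all windows. A match is a match of letters and not a measured binding site.

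Hbb-y was counted at 0.633 to 6.601 CPM (median 3.399) in the earlier and 1.01 to 266 CPM (median 22.99) in the later embryos. The highest earlier value was exceeded by 11 of 16 later embryos, while the other 5 lay within the earlier range. The fold change was 3.86 ± 0.56 on the log2 scale (adjusted p = 7.14e-05). Hba-x was at 0.326 to 8.31 CPM (median 3.38) and 2.35 to 195 CPM (median 23.9), 12 of 16 later embryos exceeded all earlier ones, and the log2 fold change was 3.33 ± 0.48 (adjusted p = 7.14e-05). Hbb-bh1 was at 2.94 to 19.7 CPM (median 10.4) and 3.297 to 273 CPM (median 32.98), 10 of 16 later embryos exceeded all earlier ones, and the log2 fold change was 2.51 ± 0.46 (adjusted p = 0.000541). All 3 genes were higher in the later embryos of 7 of 7 litters and stayed called when any 1 litter, or the embryo with the highest globin counts (N24M21E), was left out. In the order of somite number the medians of Hbb-y were 4.48, 2.43, 4.55, 24.5 and 46.1 CPM. The median at 7 pairs lay within the earlier range, although 1 embryo with 7 pairs had the highest value of all.

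**Figure D1:**
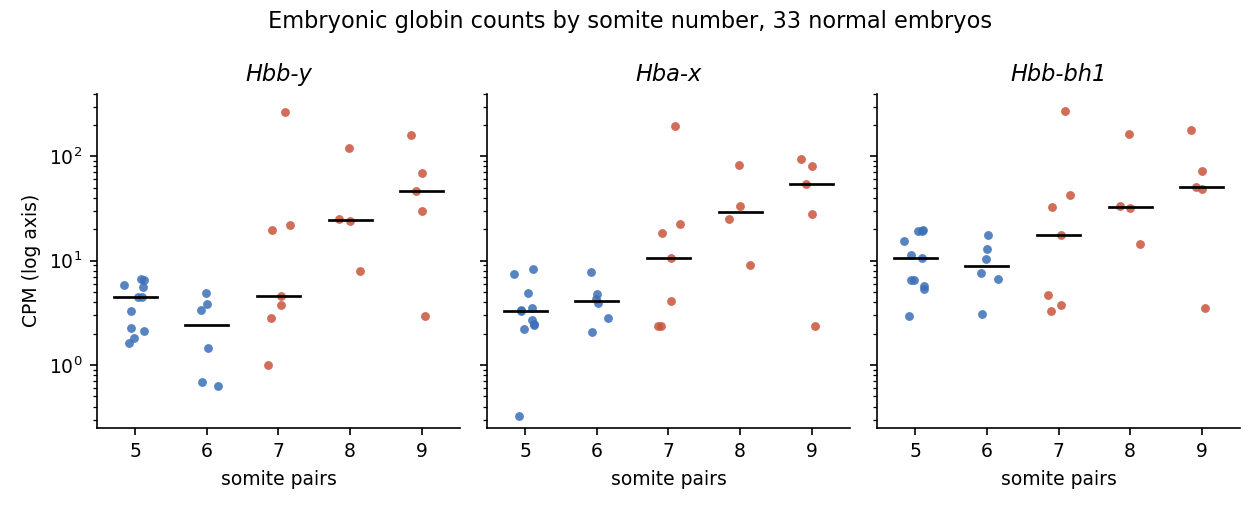
Level in CPM (log axis) of 3 embryonic globin genes in each of 33 normal embryos, by the number of somite pairs. Points are embryos, blue at 5–6 and red at 7–9 pairs, and black lines are medians, which for Hbb-y were 4.48, 2.43, 4.55, 24.5 and 46.1 CPM; at 7 to 9 pairs the embryos spread over more than a factor of 10.

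The globin values were a small share of those in the yolk sac with the same conceptus code. The yolk sacs had a mean of 792.2 ± 472.5 CPM of Hbb-y at the earlier (SD, n = 17) and 2145 ± 1503 CPM at the later stage (n = 16). The embryo value was a median of 0.473% of that of its paired yolk sac at the earlier stage (0.129 to 1.44%). It was 1.19% at the later stage (0.0521 to 10.7%), with pair N28M07E, whose sex labels differ, included. Medians for Hba-x were 0.461% and 1.40%, and for Hbb-bh1 0.320% and 0.825%. In the yolk sacs themselves, Hbb-y rose by 1.39 ± 0.32 (adjusted p = 0.00559) and Hba-x by 1.39 ± 0.19 (adjusted p = 2.37e-05), and the change of Hbb-bh1 was 0.64 ± 0.22 (adjusted p = 0.0652), all on the log2 scale. The test of the difference between embryo and yolk sac, which did not use the pairing, gave a log2 difference of 2.48 ± 0.65 for Hbb-y (adjusted p = 0.1001) and of 1.95 ± 0.50 for Hba-x (adjusted p = 0.0924).

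Other genes of the red cell lineage were near the limit of detection. Of 10 primitive erythroid markers, only the 3 globins had enough counts to be tested. Gata1, the master factor of red cell formation, had 17 counts over all 33 libraries, in 3 of 17 earlier and 10 of 16 later embryos. Slc4a1, the anion exchanger of the red cell membrane, had 35 counts, in 4 of 17 and 9 of 16 embryos, and Klf1 had 67, in 14 and 12. The summed level of the 10 markers, in CPM without TMM, was 6.87 to 36.7 (median 22.1) at the earlier and 11.3 to 735.8 (median 89.96) at the later stage (permutation test, p = 4e-05). Adult globin genes were also counted: Hba-a1 had a mean of 1.07 CPM in earlier and 5.54 in later embryos, and the summed level of 4 adult globins had medians of 2.08 and 6.22 (permutation test, p = 0.00052, adjusted p = 0.00286). Whether these molecules came from blood of the embryo, of the yolk sac or of the dam was not tested. With the mean log2 level of the erythroid markers as a covariate in the fit, 177 genes were called higher and 287 lower. Because the markers rose with stage themselves, this covariate can take up part of the stage change. A loss of calls in that fit thus cannot tell blood content and stage apart.

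Of 33 tested genes of the sarcomere and of calcium handling, 8 were called higher and none lower (24.2%, against 6.13% of all genes tested), 31 had a positive log2 fold change, and the median was 0.373 (-0.00237 over all genes tested). With the litter as a block 14 were called higher, with counts summed per litter and stage 4, for 8–9 against 5 somite pairs 2, and with the erythroid markers, which rose with stage themselves, as a covariate none. Nppa, the hormone of the forming chamber myocardium (ENSMUSG00000041616, chromosome 4, 148000722 to 148002079, plus strand), led the group. It was at 0 to 5.395 CPM (median 1.305) in earlier and 0.415 to 14.1 CPM (median 8.71) in later embryos, and 10 of 16 later embryos lay above all earlier ones. Its log2 fold change was 1.65 ± 0.35 (adjusted p = 0.00176), with 7 of 7 litters in that direction.

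Myl2, the regulatory light chain of ventricular myosin, was at 0.659 to 16.3 CPM (median 7.61) and 6.23 to 36.02 CPM (median 13.2) and changed by 1.27 ± 0.26 (adjusted p = 0.001297). The stages overlapped, with 6 of 16 later embryos above the earlier range. Tnni3, the cardiac inhibitory troponin, rose from a mean of 3.52 ± 1.81 to 7.56 ± 3.46 CPM (log2 fold change 1.02 ± 0.23, adjusted p = 0.00274). Smpx, a small protein of striated muscle, rose by 0.82 ± 0.22 (adjusted p = 0.0105) and the troponin T gene Tnnt2 by 0.42 ± 0.11 (adjusted p = 0.0115). Nppa and these 4 genes stayed called without any 1 litter. Ldb3, a Z disc protein, Myh7, the slow myosin heavy chain (51.3% of the 40-base words at its 3′ end occur in 1 other gene, so its value is uncertain), and Myl7, the atrial light chain, were called at 0.59, 0.52 and 0.42 in all 33 embryos, but Myh7 was not called with the litter block (adjusted p = 0.0542). Single litters also decided the calls for Ldb3 without litter N28M05 (adjusted p = 0.0622), for Myh7 without litters N28M05, N28M22 and N28M30 (adjusted p from 0.0515 to 0.0741) and for Myl7 without litters N23M31, N24M21, N24M29, N28M03, N28M06, N28M07 and N28M30 (adjusted p from 0.0526 to 0.128). Without embryo N24M21E the adjusted p of Myl7 was 0.0858. The cardiac actin Actc1 went from a mean of 433 ± 148 to 443 ± 82.1 CPM and was not called (log2 fold change 0.03 ± 0.14, 95% interval -0.25 to 0.31, adjusted p = 0.901). None of 20 tested cardiac transcription factors and signals was called (median log2 fold change 0.0817), but with the litter block 4 were called higher and 1 lower. Nkx2-5, the factor that marks heart precursors, had a log2 fold change of 0.12 ± 0.18 (95% interval -0.24 to 0.48).

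**Figure D2:**
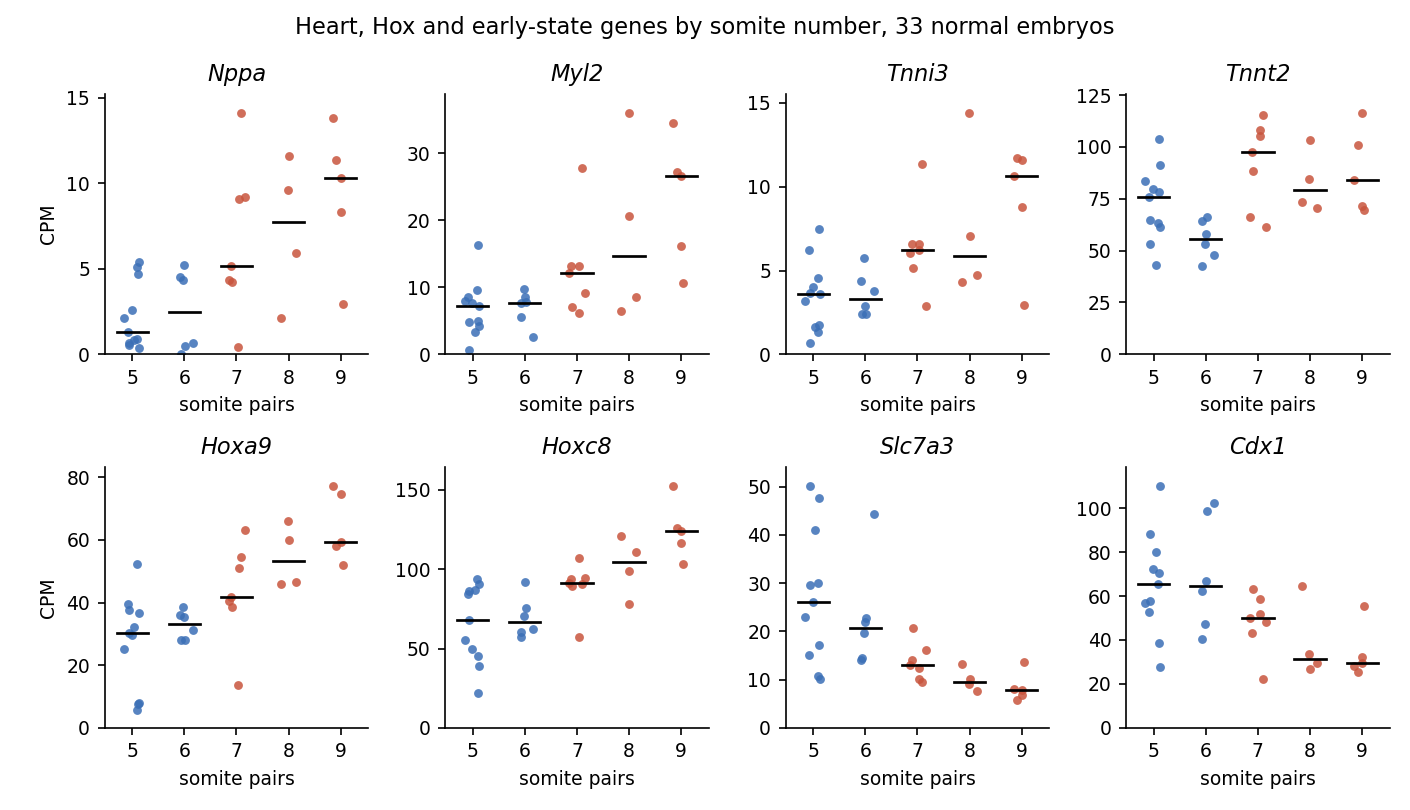
Level in CPM of 8 genes in each of 33 normal embryos, by the number of somite pairs. Points are embryos, blue at 5–6 and red at 7–9 pairs, and black lines are medians; Nppa, Myl2, Hoxa9 and Hoxc8 are higher and Slc7a3 and Cdx1 lower in the later embryos, with overlap between the stages in every gene shown.

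Hox genes rose in part of the clusters. Of 39 Hox genes, 25 were tested, 9 were called higher (36%, against 6.13% of all genes) and none lower, 20 had a positive log2 fold change and the median was 0.263. All 9 were also called with the litter block, but the count was 1 with counts summed per litter and stage, 2 for 7 against 6 pairs, 3 for 8–9 against 5 pairs and 3 with the erythroid markers, which rose with stage themselves, as a covariate. Of the 11 tested genes of paralogue groups 6 to 9, 6 were called, with log2 fold changes between 0.0449 and 0.83 and a median of 0.489. Of the 13 of groups 1 to 5, 3 were called (median 0.182), and the 1 tested gene of group 10, Hoxa10, had a log2 fold change of -0.56 ± 0.38 (adjusted p = 0.3197). Hoxa9 was at 5.82 to 52.3 CPM (median 31.3) in earlier and 13.7 to 77.1 CPM (median 53.3) in later embryos. Its log2 fold change was 0.83 ± 0.20 (adjusted p = 0.00614), and 8 of 16 later embryos lay above all earlier ones. In the order of somite number its means were 27.7, 32.9, 43.3, 54.6 and 64.2 CPM.

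Hoxc8 was at 21.9 to 93.9 CPM (median 67.8) and 57.3 to 152 CPM (median 101), and its log2 fold change was 0.63 ± 0.14 (adjusted p = 0.00258). Its stages overlapped, with 10 of 16 later embryos above the earlier range. Other called genes of the central clusters were Hoxc9 (0.71 ± 0.19), Hoxc6 (0.66 ± 0.17), Hoxa7 (0.49 ± 0.13) and Hoxd8 (0.52 ± 0.15). Of the lower paralogue groups, Hoxd4 (0.63 ± 0.13), Hoxb4 (0.46 ± 0.10) and Hoxb3 (0.41 ± 0.14) were called. Their neighbours Hoxb1 (0.20 ± 0.12, adjusted p = 0.273), Hoxb2 (-0.13 ± 0.11, 0.467) and Hoxb8 (0.07 ± 0.15, 0.777) were not. Calls were lost for Hoxd8 without litters N28M03 and N28M06 (adjusted p from 0.0543 to 0.0975) and for Hoxb3 without litters N28M03, N28M05, N28M06, N28M07, N28M22, N28M25 and N28M30 (adjusted p from 0.0509 to 0.169), and the other 7 were kept without any 1 litter. Hoxb5os, an RNA transcribed opposite to Hoxb5 (chromosome 11, 96291024 to 96306910, minus strand), was at 2.75 to 12.4 CPM (median 6.95) and 5.599 to 35.4 CPM (median 17.3). Its log2 fold change of 1.32 ± 0.21 (adjusted p = 0.000190) was larger than that of any tested Hox gene, and 13 of 16 later embryos lay above all earlier ones. Whether the counting used the strand is not given in the sources used here, so reads of overlapping genes may not be separated.

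**Figure D3:**
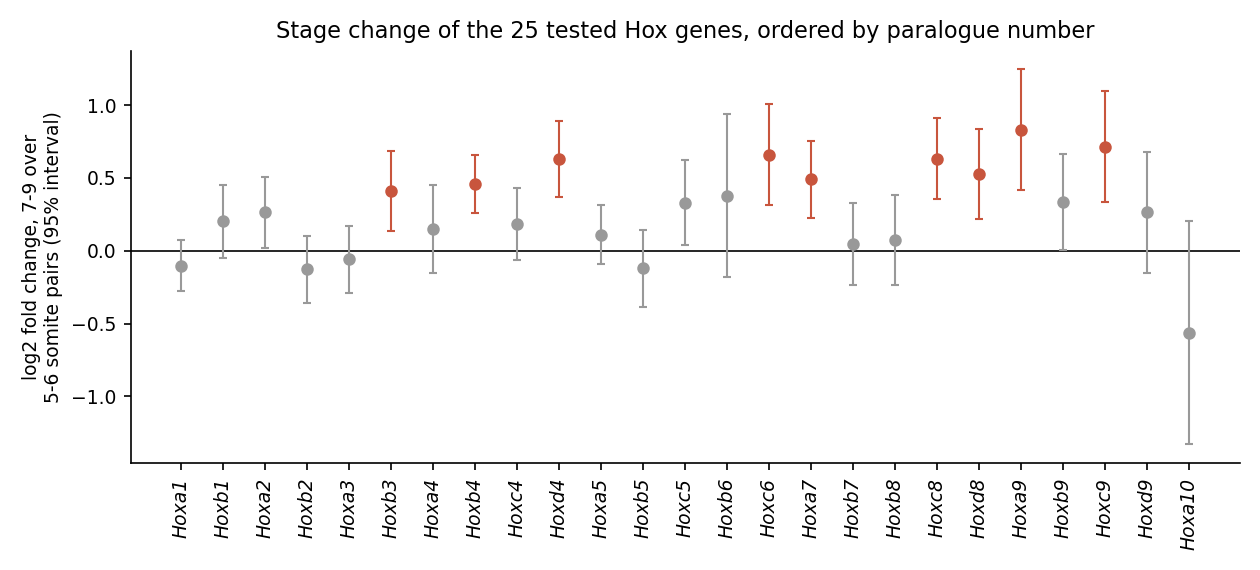
Log2 fold change of 7–9 over 5–6 somite pairs, with 95% intervals, for the 25 tested Hox genes ordered by paralogue number. Red points are the 9 genes called higher and grey points are not called; the called genes lie in paralogue groups 3 to 9, and no gene is called lower.

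In the neural plate and tube, 3 of 22 tested forebrain and midbrain factors were called higher (13.6%) and 2 lower (9.09%), with a median of 0.0224. Of 22 hindbrain and spinal cord factors, 3 were higher (13.6%) and 1 lower (4.55%), with a median of 0.049. With the litter block the latter counts were 3 and 2. The shares over all genes tested were 6.13% higher and 8.97% lower. Zic1, a zinc finger factor of the dorsal neural tube, was at 2.24 to 19.7 CPM (median 7.83) in earlier and 3.74 to 38.9 CPM (median 17.9) in later embryos (log2 fold change 1.20 ± 0.26, adjusted p = 0.00258). Cyp26b1, the enzyme that clears retinoic acid in the hindbrain, was at 6.14 to 48.1 CPM (median 18.5) and 15.04 to 80.8 CPM (median 41.2) (1.14 ± 0.20, adjusted p = 0.000345). The stages overlapped for both. Msx3, a factor of the dorsal neural tube, Pax6, a factor of eye and neural tube, and Emx2, a factor of the dorsal forebrain, were called at 0.67, 0.41 and 0.48, but the calls were lost for Msx3 without litters N24M21, N28M07 and N28M30 (adjusted p from 0.0632 to 0.0814), for Pax6 without litters N24M21, N28M03, N28M05, N28M25 and N28M30 (adjusted p from 0.0508 to 0.0691) and for Emx2 without litters N23M31, N24M21, N24M29, N28M05, N28M06, N28M22, N28M25 and N28M30 (adjusted p from 0.0523 to 0.113).

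Lower were Fgf15, a growth factor of the neural plate and Lmo1 (-0.53 ± 0.14, adjusted p = 0.0105). Fgf15 was at 57.7 to 114 CPM (median 94.3) in earlier and 44.5 to 81.9 CPM (median 63.9) in later embryos, with overlap (-0.50 ± 0.09, adjusted p = 0.000654). It was lower at the later stage in 7 of 7 litters. Foxa2, the factor of floor plate, notochord and endoderm, fell from a mean of 50.9 ± 9.598 to 38.7 ± 10.5 CPM (-0.39 ± 0.12, adjusted p = 0.01899). Of 14 tested genes of early neurons 1 was called (7.14%, against 8.97% lower over all genes tested). It was Stmn2, which was lower (-0.37 ± 0.10, adjusted p = 0.01396), and 4 were called lower with the litter block. The general neural factors Otx2 (-0.02 ± 0.07, 95% interval -0.17 to 0.13) and Sox1 (-0.15 ± 0.13, -0.41 to 0.10) were not called, although Sox1 was called lower with the litter block (adjusted p = 0.0228). The calls were lost for Lmo1 without litter N28M06 (adjusted p = 0.0589) and for Foxa2 without litter N28M06 (adjusted p = 0.145).

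Neural crest, the migratory cells that leave the closing neural tube, showed 5 called higher and 3 lower of 27 tested factors. The median was 0.162, and the shares were 18.5% and 11.1%, against 6.13% and 8.97% of all genes tested. Tfap2b, an early crest factor, was at 8.55 to 36.8 CPM (median 17.02) in earlier and 17.8 to 54.1 CPM (median 33.4) in later embryos (0.83 ± 0.18, adjusted p = 0.00299). Ednrb, the endothelin receptor of migrating crest, rose from a mean of 5.04 ± 1.95 to 9.101 ± 4.02 CPM (0.81 ± 0.20, adjusted p = 0.00538). Zic1 is also a member of this list. Foxd3, the factor of crest precursors, fell from a mean of 43.6 ± 13.5 to 30.98 ± 7.096 CPM (-0.49 ± 0.13, adjusted p = 0.00952), and Rxrg (-0.75) and Dlx6 (-0.49) were also lower. Sox10, a factor of migrating crest, had a log2 fold change of 0.58 ± 0.23 (adjusted p = 0.0802). Dlx2 was called higher at 0.56. Calls were lost for Foxd3 without litter N28M06 (adjusted p = 0.121), for Rxrg without litters N24M21, N28M03, N28M06, N28M07, N28M22 and N28M30 (adjusted p from 0.054 to 0.135), for Dlx6 without litters N24M21, N28M03, N28M05 and N28M06 (adjusted p from 0.0563 to 0.0976) and for Dlx2 without litters N23M31, N24M29, N28M05, N28M06, N28M07, N28M22, N28M25 and N28M30 (adjusted p from 0.0526 to 0.135), and without embryo N24M21E the adjusted p was 0.0583 for Rxrg and 0.0514 for Dlx2.

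Of 17 tested genes expressed in the pluripotent epiblast and its descendants, 6 were called lower (35.3%, against 8.97% of all genes) and none higher, 15 were negative and the median was -0.139. With the litter block 6 were called lower and 1 higher. Slc7a3, a transporter of cationic amino acids (chromosome X, 101079210 to 101086020, minus strand), was at 10.2 to 50.1 CPM (median 22.8) in earlier and 5.85 to 20.7 CPM (median 10.1) in later embryos. Its log2 fold change of -1.20 ± 0.21 (adjusted p = 0.000298) was the largest decrease of all 10696 genes tested, and in 7 of 7 litters the later embryos were lower. Its means by somite number were 27.3, 22.9, 13.7, 10.01 and 8.47 CPM. Tdh, the threonine dehydrogenase of the epiblast, was called at -0.68 ± 0.19, the RNA binding protein Lin28a at -0.33 ± 0.10 and the DNA methyltransferase Dnmt3b at -0.29 ± 0.10. Fgf15, already described, is also a member. Calls were lost for Tdh without litters N28M05 and N28M30 (adjusted p from 0.0515 to 0.0998), for Lin28a without litters N24M21 and N28M06 (adjusted p from 0.0502 to 0.058) and for Dnmt3b without litters N23M31, N24M21, N28M05, N28M06, N28M07 and N28M30 (adjusted p from 0.0531 to 0.128). Without embryo N24M21E the adjusted p of Dnmt3b was 0.0517. Pou5f1, the defining pluripotency factor, had counts in 6 of 17 earlier and 2 of 16 later embryos and was not tested.

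In the tail bud and primitive streak, 6 of 22 tested genes were called lower (27.3%, against 8.97% of all genes tested). Another 2 were higher (9.09%, against 6.13%, and 1 with the litter block), and the median was -0.0905. Epha1, an ephrin receptor of the streak, was at 21.3 to 72.6 CPM (median 38.2) and 8.19 to 48.02 CPM (median 22.2) (-0.77 ± 0.18, adjusted p = 0.00529). The caudal homeobox factor Cdx1 was at 27.6 to 110.0 CPM (median 65.5) and 22.3 to 64.4 CPM (median 38.5) (-0.70 ± 0.17, adjusted p = 0.00496), and both overlapped between the stages. Apela, a peptide ligand of the apelin receptor (-0.47 ± 0.14), the Wnt target Sp5 (-0.36 ± 0.11), Sox2, the factor of neural progenitors (-0.33 ± 0.09) and Lin28b (-0.25 ± 0.06) were lower too. Higher were Gdf11, a growth factor that times the trunk-to-tail transition (0.59 ± 0.13, adjusted p = 0.00287), and Greb1 (0.40 ± 0.11), which was not called with the litter block (adjusted p = 0.151). The axial genes T (0.06 ± 0.14, 95% interval -0.21 to 0.33), Wnt3a (-0.09 ± 0.21, -0.51 to 0.33) and Fgf8 (-0.18 ± 0.18, -0.55 to 0.19) were not called. Calls that depended on a litter were lost for Apela without litters N28M06 and N28M30 (adjusted p from 0.0908 to 0.0924), for Sp5 without litters N24M21, N24M29, N28M07 and N28M30 (adjusted p from 0.0586 to 0.0969), for Sox2 without litter N28M06 (adjusted p = 0.0745), for Lin28b without litters N28M05 and N28M06 (adjusted p from 0.0516 to 0.0708) and for Greb1 without litter N28M05 (adjusted p = 0.0589).

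Of 14 tested factors of formed somites, Tcf15, which marks epithelial somites, was called higher (from a mean of 35.6 ± 18.3 to 60.4 ± 30.8 CPM, log2 fold change 0.75 ± 0.24, adjusted p = 0.0303), and Pax9, a factor of sclerotome and pharyngeal endoderm, lower (-0.49 ± 0.17, adjusted p = 0.0495). Each of these calls was 7.14% of the list, against 6.13% higher and 8.97% lower over all genes tested. Tcf15 was not called with the litter block (adjusted p = 0.185), where 1 of the list was higher and 2 lower. The calls were lost for Tcf15 without litters N28M05, N28M06 and N28M22 (adjusted p from 0.0572 to 0.137) and for Pax9 without litters N24M21, N24M29, N28M05, N28M06, N28M07, N28M22, N28M25 and N28M30 (adjusted p from 0.0564 to 0.276), and that of Pax9 also without embryo N24M21E (adjusted p = 0.0805). Of 16 tested genes of the segmentation clock, Nrarp, the feedback inhibitor of Notch signaling, was called (6.25% of the list). It was at 5.82 to 27.2 CPM (median 17.8) in earlier and 15.03 to 44.9 CPM (median 31.04) in later embryos, overlapping in part. It rose by 0.77 ± 0.15 on the log2 scale (adjusted p = 0.000909).

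Of 22 tested genes of definitive endoderm and gut tube, 5 were called lower (22.7%, against 8.97% of all genes tested) and none higher (against 6.13%), with a median of -0.162. With the litter block 3 were called lower and 1 higher. Trh, the gene of the thyrotropin-releasing hormone, was at 7.22 to 38.9 CPM (median 17.3) in earlier and 2.73 to 21.7 CPM (median 8.22) in later embryos (-1.02 ± 0.25, adjusted p = 0.0069). Hhex, the homeobox factor of liver and thyroid precursors, was at 11.3 to 24.2 CPM (median 14.1) and 4.73 to 16.2 CPM (median 9.14) (-0.62 ± 0.14, adjusted p = 0.00252), and 12 of 16 later embryos lay below all earlier ones. Spink1, a trypsin inhibitor, fell from a mean of 394 ± 146 to 242 ± 114 CPM (-0.70 ± 0.19, adjusted p = 0.0113) and Pyy, a gut peptide, was lower (-0.60 ± 0.20, adjusted p = 0.0388). Neither was called with the litter block (adjusted p = 0.0605 and 0.495). Foxa2, given above, is the fifth. Some calls depended on a litter and were lost for Spink1 without litter N28M30 (adjusted p = 0.0527) and for Pyy without litters N24M21, N28M05, N28M06, N28M07, N28M22, N28M25 and N28M30 (adjusted p from 0.0614 to 0.132).

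Visceral endoderm, the outer layer of the yolk sac, was followed by 10 markers, which had counts in nearly every library. Their summed level was 141.5 to 513.6 CPM (median 305.1) at the earlier and 45.0 to 665.2 (median 198.4) at the later stage (permutation test, p = 0.358). This was a median of 3.12% of the sum in the yolk sac with the same conceptus code at the earlier and of 1.63% at the later stage. The study cautions that visceral endoderm is hard to remove from embryos in full. Of 8 tested markers, 7 had a negative log2 fold change, and the median was -0.248. How far such carryover bears on the endoderm genes above was not tested. The 1 marker called (12.5%, against 8.97% lower over all genes tested) was Amn, the membrane anchor of the cubilin receptor. It was lower (from a mean of 17.2 ± 6.75 to 9.299 ± 7.84 CPM, log2 fold change -0.83 ± 0.27, adjusted p = 0.0312). That call was lost for Amn without litters N24M29, N28M03, N28M05, N28M06, N28M22, N28M25 and N28M30 (adjusted p from 0.0536 to 0.117). With the mean log2 level of the 10 markers as a covariate, 445 genes were called higher and 732 lower. Giant cell genes of the trophoblast such as Prl3d1 and Prl2c2 had no count in any of 33 libraries. The summed trophoblast level gave a permutation p of 0.347. Most of that sum was Hand1 (means of 31.2 and 39.5 CPM), which is also in the allantois and amnion list. Plac1 (8.42 and 6.32 CPM) and Ascl2 (3.78 and 2.01 CPM) went the other way, so the sum does not measure trophoblast alone. Neither of the 2 tested members was called, and 1 was called higher with the litter block. None of 10 macrophage markers was testable, and their sum gave a permutation p of 0.902. The summed level of 12 allantois and amnion markers had medians of 203.9 CPM in earlier and 218.8 CPM in later embryos (permutation test, p = 0.129). Of its 10 tested members, 1 was called higher (Postn, 10%, against 6.13% of all genes tested) and none lower, and with the litter block 4 were called higher.

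Matrix genes were higher in 6 and lower in 1 of 38 tested (15.8% and 2.63%, against 6.13% and 8.97% of all genes tested, median 0.049). Postn, the secreted periostin, was at 0.344 to 6.85 CPM (median 2.63) in earlier and 1.41 to 18.98 CPM (median 7.46) in later embryos (1.10 ± 0.30, adjusted p = 0.0107), and Col2a1, the collagen of notochord and cartilage, at 18.6 to 37.1 CPM (median 25.4) and 23.9 to 58.6 CPM (median 34.97) (0.42 ± 0.11, adjusted p = 0.00739). Both overlapped between the stages and stayed called without any 1 litter. Col3a1 (0.83 ± 0.24), Col4a6 (0.48 ± 0.15), the gelatinase Mmp2 (0.41 ± 0.12) and Col1a2 (0.40 ± 0.11) were also called higher, and fibronectin, Fn1, lower (-0.30 ± 0.10). Their calls were lost for Col3a1 without litters N28M06, N28M07 and N28M30 (adjusted p from 0.0563 to 0.0799), for Col4a6 without litters N24M21, N28M05 and N28M06 (adjusted p from 0.0627 to 0.0831), for Mmp2 without litters N24M21 and N28M06 (adjusted p from 0.0739 to 0.0853), for Col1a2 without litter N28M07 (adjusted p = 0.0587) and for Fn1 without litters N24M21, N28M05, N28M06, N28M22, N28M25 and N28M30 (adjusted p from 0.0762 to 0.155). Without embryo N24M21E the adjusted p was 0.0548 for Col4a6 and 0.0743 for Fn1. Thbs1, the matrix protein thrombospondin, rose from a mean of 3.82 ± 1.86 to 8.47 ± 4.56 CPM (1.17 ± 0.25, adjusted p = 0.00224) and was among the 15 largest increases. Ctgf, a matrix-bound growth regulator, rose by 1.20 ± 0.42 (adjusted p = 0.0451), but was not called with the litter block (adjusted p = 0.0529) or without embryo N24M21E (0.0504), and single litters ended the call for Ctgf without litters N24M21, N28M05, N28M06, N28M07, N28M22 and N28M25 (adjusted p from 0.0516 to 0.129).

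Among signaling pathways, the 20 tested FGF ligands, receptors and feedback genes had 3 called higher and 5 lower. The median was -0.0531, and the shares were 15% and 25%, against 6.13% and 8.97% of all genes tested. Fgf9, a ligand, rose from a mean of 4.68 ± 1.87 to 8.01 ± 2.49 CPM (0.74 ± 0.18, adjusted p = 0.00466). Of the receptors, Fgfr3 fell from a mean of 17.8 ± 3.75 to 12.9 ± 3.85 CPM (-0.46 ± 0.13, adjusted p = 0.0154) and Fgfr1 was lower (-0.26 ± 0.08, adjusted p = 0.0337). Of the feedback genes, the phosphatase Dusp6 (0.48) and Il17rd (0.28) were called higher and the effector Etv5 (-0.36) and Spred1 (-0.17) lower. Il17rd and Spred1 were not called with the litter block (adjusted p = 0.148 and 0.191), and Fgfr1 and Spred1 not without embryo N24M21E (0.0578 and 0.0593). Single litters decided the calls for Fgfr1 without litters N24M21, N28M03, N28M05, N28M06, N28M07 and N28M30 (adjusted p from 0.056 to 0.119), for Dusp6 without litters N24M21, N28M05, N28M06, N28M22 and N28M25 (adjusted p from 0.0569 to 0.129), for Il17rd without litters N24M21, N24M29, N28M03, N28M05, N28M06, N28M07 and N28M25 (adjusted p from 0.0571 to 0.155), for Etv5 without litters N24M21, N28M03, N28M05, N28M06, N28M22, N28M25 and N28M30 (adjusted p from 0.0546 to 0.139) and for Spred1 without litters N23M31, N24M21, N28M03, N28M05, N28M06 and N28M22 (adjusted p from 0.0558 to 0.233).

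In the Hedgehog pathway, 2 of 17 tested genes were called higher (11.8%) and 1 lower (5.88%), with a median of -0.00367. The shares over all genes tested were 6.13% and 8.97%. With the litter block 3 of the list were higher and 2 lower. Smo, the signal transducer, was at 8.63 to 31.99 CPM (median 14.3) in earlier and 16.8 to 31.8 CPM (median 21.5) in later embryos (0.54 ± 0.13, adjusted p = 0.00653), and Gli3, the main repressor form of its transcription factors, at 21.98 to 94.6 CPM (median 52.9) and 57.9 to 106 CPM (median 82.3) (0.56 ± 0.14, adjusted p = 0.00577). The stages overlapped in both. The ligand Shh (0.02 ± 0.18, 95% interval -0.34 to 0.38) and the target genes Ptch1 (95% interval -0.16 to 0.15) and Gli1 (-0.05 ± 0.18, -0.42 to 0.32) were not called. The lower member was Foxa2. Calls that depended on a litter were lost for Smo without litter N28M06 (adjusted p = 0.0558) and for Gli3 without litter N28M06 (adjusted p = 0.0764).

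Of 17 tested genes of retinoic acid and retinol metabolism, Cyp26b1 was the 1 called higher. The receptors Rarg (-0.41 ± 0.11) and Rxrg (-0.75 ± 0.25) and the retinol dehydrogenase Rdh10 (-0.26 ± 0.07) were called lower, and the median was 0.013. These were 5.88% and 17.6% of the list, against 6.13% higher and 8.97% lower over all genes tested. Of 23 tested Wnt ligands and antagonists, Lef1, the nuclear mediator (0.42 ± 0.13, adjusted p = 0.0227), and Nkd1, a feedback inhibitor (0.31 ± 0.10), were called higher and none lower. The share of the Wnt list called higher was 8.7%. Nkd1 was not called with the litter block (adjusted p = 0.0515). Of 26 tested genes of the BMP and TGF-beta pathway, Gdf11 and the antagonist Grem1 (0.50 ± 0.15) were called higher and the target Id1 (-0.43 ± 0.13) lower, the last not with the litter block (adjusted p = 0.205). The shares of this list were 7.69% higher and 3.85% lower. With the litter block 6 of the list were called higher and none lower. Bmp4 had a log2 fold change of 0.42 ± 0.15 (adjusted p = 0.0517, with the litter block 0.0387). Some calls depended on a litter and were lost for Rarg without litters N24M21 and N28M06 (adjusted p from 0.0506 to 0.0526), for Rxrg without litters N24M21, N28M03, N28M06, N28M07, N28M22 and N28M30 (adjusted p from 0.054 to 0.135), for Rdh10 without litter N28M05 (adjusted p = 0.0791), for Lef1 without litters N28M05 and N28M06 (adjusted p from 0.0596 to 0.122), for Nkd1 without litters N24M21, N28M05 and N28M06 (adjusted p from 0.062 to 0.125), for Grem1 without litters N24M21, N28M06, N28M07 and N28M30 (adjusted p from 0.0504 to 0.071) and for Id1 without litters N24M21, N28M05, N28M06 and N28M22 (adjusted p from 0.0565 to 0.0922), and that of Rxrg also without embryo N24M21E (adjusted p = 0.0583).

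Of 25 tested genes of endothelium and vessel formation, 2 were called higher and 2 lower (8% each, median 0.086). The shares over all genes tested were 6.13% and 8.97%. With the litter block 5 of the list were higher and 2 lower. Aplnr, the apelin receptor, rose from a mean of 8.65 ± 3.19 to 13.3 ± 3.35 CPM (0.62 ± 0.15, adjusted p = 0.006598) and its ligand Apln was lower (-0.40 ± 0.11, adjusted p = 0.0165). Nrp2, a coreceptor of vessels and crest, rose by 0.31 ± 0.08 (adjusted p = 0.00731), and Hhex is the second gene called lower. Single litters decided the calls for Aplnr without litter N28M06 (adjusted p = 0.119) and for Apln without litter N28M30 (adjusted p = 0.0573).

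Of 25 tested genes of the response to low oxygen, 4 were called lower (16%, against 8.97% of all genes tested) and none higher (against 6.13%). A positive log2 fold change was seen in 12, and the median was -0.0377. With the litter block 4 were called lower and 2 higher. Hif1a, the oxygen-regulated subunit of the hypoxia factor, was at 293 to 370.2 CPM (median 331) in earlier and 230.1 to 324 CPM (median 264) in later embryos, and 15 of 16 later embryos lay below all earlier ones. Its log2 fold change was -0.29 ± 0.05 (adjusted p = 0.000298), in the same direction in 7 of 7 litters. Ankrd37, a target of the factor, fell from a mean of 12.4 ± 4.85 to 7.697 ± 3.75 CPM (-0.72 ± 0.21, adjusted p = 0.0165), and heme oxygenase Hmox1 (-0.55 ± 0.18, adjusted p = 0.0331) and the mitophagy receptor Bnip3 were lower (-0.40 ± 0.12, adjusted p = 0.0258), the last not with the litter block (0.143). Vegfa, the vascular growth factor, was not called (0.04 ± 0.13, 95% interval -0.23 to 0.31, adjusted p = 0.869). Calls that depended on a litter were lost for Hmox1 without litters N24M21, N28M05, N28M06, N28M22, N28M25 and N28M30 (adjusted p from 0.0554 to 0.135) and for Bnip3 without litters N24M21, N28M05 and N28M06 (adjusted p from 0.0973 to 0.138), and that of Hmox1 also without embryo N24M21E (adjusted p = 0.0508).

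Of 25 tested genes of glycolysis and lactate transport, 2 were called higher and 3 lower, and with the litter block 4 and 3. The shares, 8% and 12%, lay near the 6.13% and 8.97% of all genes tested, and the median was -0.0749. Slc2a3, the high-affinity glucose transporter, was at 855 to 1417 CPM (median 1066) in earlier and 711 to 1079.9 CPM (median 824) in later embryos. It was lower (-0.33 ± 0.07, adjusted p = 0.00163) in 7 of 7 litters, with overlap between the stages. The glucose transporter Slc2a1 had a log2 fold change of -0.12 ± 0.07 (95% interval -0.27 to 0.04, adjusted p = 0.2999). The lactate exporter Slc16a3 (-0.39 ± 0.12) and the aldolase Aldoc (-0.34 ± 0.10) were also called lower, with calls lost for Slc16a3 without litters N24M21, N28M05, N28M06, N28M22 and N28M25 (adjusted p from 0.052 to 0.15) and for Aldoc without litters N24M21 and N28M06 (adjusted p from 0.0735 to 0.12).

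The 2 glycolysis genes called higher, Gapdh and Pgk1, led that list. Gapdh was at 20.9 to 118 CPM (median 45.2) in earlier and 20.9 to 326 CPM (median 103) in later embryos (1.39 ± 0.25, adjusted p = 0.000507), and Pgk1 at 0.344 to 23.7 CPM (median 3.799) and 0.415 to 55.99 CPM (median 11.8) (1.54 ± 0.45, adjusted p = 0.0183). Of the 40-base words in the last 300 bases of the longest Gapdh transcript, 38.7% occur in the transcripts of 8 other genes. How the counting treated such reads is not given in the sources used here. The same measure was 98.5% for Gpx4, a glutathione peroxidase (1.16 ± 0.26, adjusted p = 0.003597), and 100% for Schip1 (1.56 ± 0.25, adjusted p = 0.000136), whose end lies in 1 other annotated gene. Most of the words were shared in 2.1% of all genes tested, in 4.3% of those called higher and in 20.7% (6 of 29) of those higher by at least 2-fold. The values of Gapdh, Gpx4 and Schip1 are therefore uncertain. Pgk1 shared 0.0% of its words. Embryos N24M21E and N28M06D had the highest Gapdh counts. Without the first the adjusted p of Pgk1 was 0.0533, and its call also ended for Pgk1 without litters N24M21 and N28M06 (adjusted p from 0.106 to 0.179).

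Of 76 tested nuclear genes of the respiratory chain, 7 were called higher and 7 lower (9.21% each, near the 6.13% and 8.97% of all genes tested, median 0.0536). Of the higher ones, Uqcr11 of complex III rose from a mean of 66.7 ± 12.5 to 92.5 ± 27.9 CPM (0.47 ± 0.12, adjusted p = 0.00624) and Cyc1, its cytochrome, by 0.42 ± 0.10. Of the lower ones, Ndufs1 of complex I was at 149 to 256 CPM (median 181) in earlier and 95.7 to 170.5 CPM (median 130.0) in later embryos (-0.48 ± 0.08, adjusted p = 0.000242), with 13 of 16 later embryos below all earlier ones. Atp5k of the ATP synthase (-0.48 ± 0.12) and cytochrome c, Cycs (-0.37 ± 0.12), were also lower. With the litter block 30 of the 76 were called higher and 4 lower, and Cycs was not called (adjusted p = 0.0586). Some calls depended on a litter and were lost for Cyc1 without litter N28M06 (adjusted p = 0.0629) and for Cycs without litters N28M05, N28M06, N28M22, N28M25 and N28M30 (adjusted p from 0.0569 to 0.141), and that of Cycs also without embryo N24M21E (adjusted p = 0.0559). None of 7 tested mRNAs of the mitochondrial genome was called (median -0.042), and 1 was called higher with the litter block. Of 24 tested genes of cholesterol synthesis and its control, 2 were called higher and 1 lower (8.33% and 4.17%, median -0.022), and with the litter block 2 and 2. Mvk, the mevalonate kinase, was called higher (0.32 ± 0.11, adjusted p = 0.03302), but not with the litter block (adjusted p = 0.132) or without embryo N24M21E (0.0626), and its call was also lost for Mvk without litters N28M03, N28M05, N28M06 and N28M25 (adjusted p from 0.0506 to 0.116).

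Of 40 tested cell cycle genes, 2 were called higher and 6 lower (5% and 15%, against 6.13% and 8.97% of all genes tested), with a median of -0.00155. The cyclin Ccnd2 rose from a mean of 1069.6 ± 237 to 1339 ± 163 CPM (0.32 ± 0.09, adjusted p = 0.0131). Mcm2, a part of the replicative helicase, fell from a mean of 226 ± 33.5 to 181 ± 31.4 CPM (-0.32 ± 0.08, adjusted p = 0.00696) and was not called with the litter block (adjusted p = 0.0848). With the litter block 5 of the list were called higher and 3 lower. Of 16 tested immediate early genes, Ier2 was called higher (from a mean of 26.9 ± 8.32 to 42.99 ± 14.6 CPM, log2 fold change 0.68 ± 0.15, adjusted p = 0.00301), Ctgf also higher and Ier3 lower (from a mean of 25.3 ± 15.5 to 13.8 ± 5.12 CPM, -0.87 ± 0.22, adjusted p = 0.00831). The calls were 12.5% of the list higher and 6.25% lower, and the litter block left 1 of the genes called higher and 1 lower. Egr1, the best known of them, ranged over 3.403 to 87.4 CPM in earlier and 10.3 to 129.8 CPM in later embryos and was not called (adjusted p = 0.516).

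Of 29 tested imprinted genes, which are expressed from 1 parental copy, 7 were called higher and 4 lower. The median was 0.0814, and the shares were 24.1% and 13.8%, against 6.13% and 8.97% of all genes tested. Plagl1, a paternally expressed zinc finger factor, was at 35.7 to 98.6 CPM (median 78.2) in earlier and 48.2 to 163 CPM (median 102) in later embryos (0.56 ± 0.14, adjusted p = 0.00557). Phlda2, a maternally expressed restrainer of placental growth, was at 148 to 648 CPM (median 299) and 125 to 246 CPM (median 191) (-0.74 ± 0.14, adjusted p = 0.000749). Both overlapped and stayed called without any 1 litter, as did Zim1 (0.71 ± 0.19) and the noncoding RNA Airn (0.43 ± 0.12), but Airn was not called with the litter block (adjusted p = 0.0783). The noncoding Kcnq1ot1 (0.45; litter block, adjusted p = 0.122), Peg3 (0.42), Sgce (0.39) and Ndn (0.38) were also called higher, with calls lost for Kcnq1ot1 without litter N28M05 (adjusted p = 0.0551), for Peg3 without litter N28M06 (adjusted p = 0.0575), for Sgce without litters N24M21, N28M06, N28M07, N28M25 and N28M30 (adjusted p from 0.052 to 0.132) and for Ndn without litters N24M21 and N28M06 (adjusted p from 0.0698 to 0.132). Without embryo N24M21E the adjusted p of Sgce was 0.0517. The other 3 called lower were Ddc (-0.40), Snrpn (-0.23) and Grb10 (-0.20), none of which kept its call without every single litter. Grb10 was not called with the litter block either (adjusted p = 0.2997).

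**Figure D4:**
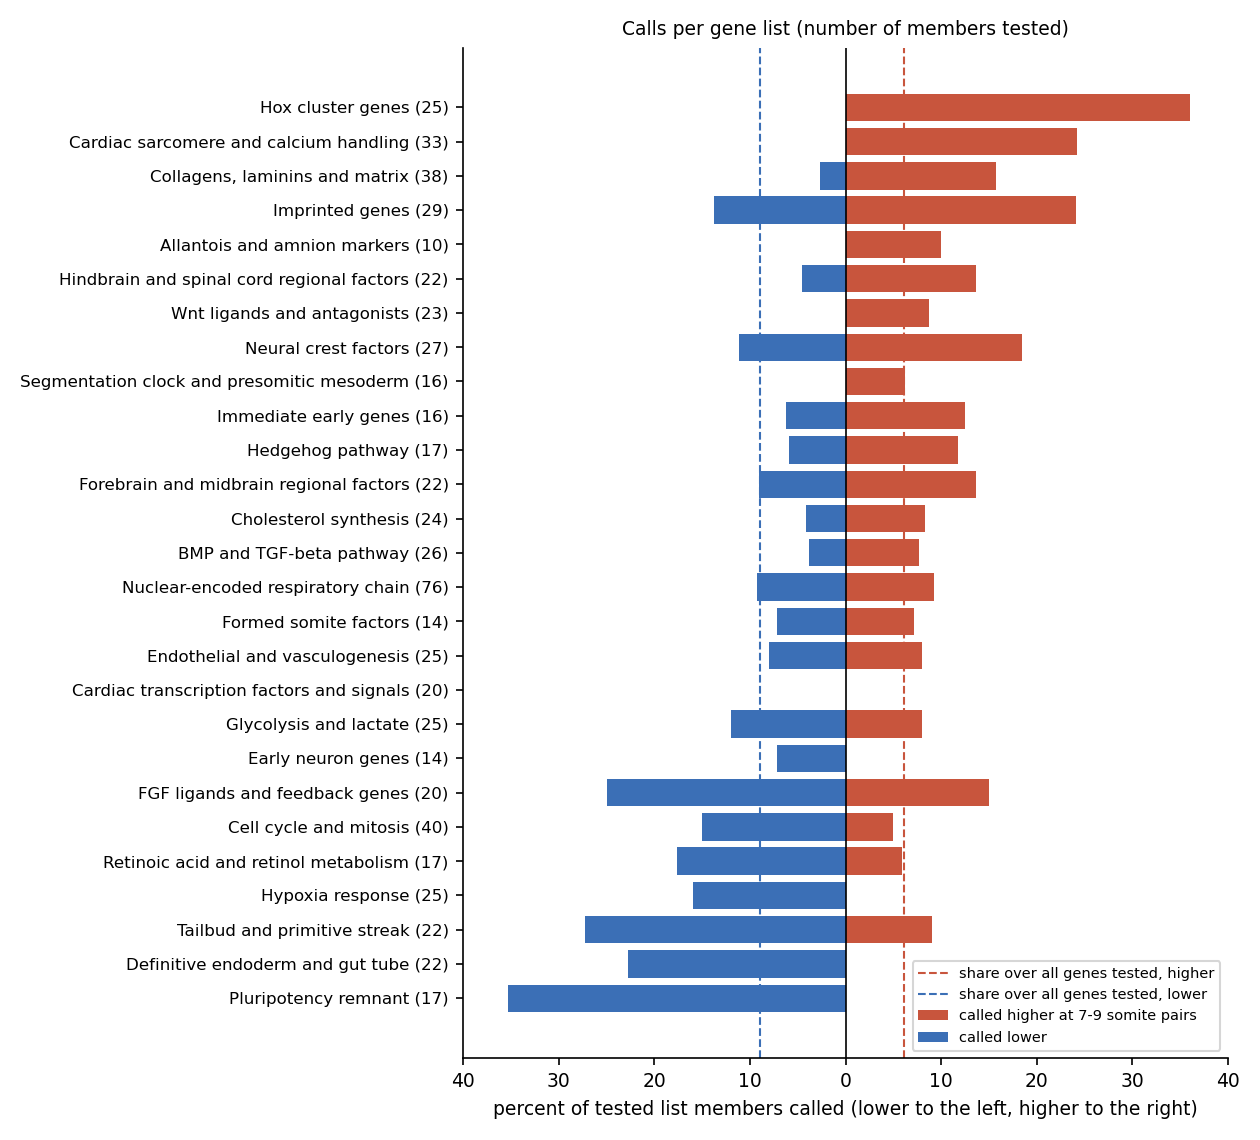
Percent of tested members called higher (red, to the right) and lower (blue, to the left) at 7–9 somite pairs in each gene list with at least 10 tested members, given in parentheses. Dashed lines are the shares over all 10696 genes tested (6.13% higher and 8.97% lower). Hox and cardiac sarcomere genes extend farthest to the right, pluripotency and tailbud genes farthest to the left. The lists were chosen with earlier results of these data known.

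The largest changes outside these lists were as follows. Ptk7, a coreceptor of planar cell polarity needed for neural tube closure (chromosome 17, 46564471 to 46629504, minus strand), was at 5.35 to 86.3 CPM (median 31.2) in earlier and 11.8 to 259 CPM (median 105) in later embryos (1.71 ± 0.37, adjusted p = 0.002003). Fryl was at 15.02 to 56.9 CPM (median 29.5) and 22.1 to 130.4 CPM (median 64.3) (1.14 ± 0.20, adjusted p = 0.000430). Both overlapped between the stages and stayed called without any 1 litter. Among the decreases, Cfc1, the coreceptor of Nodal in left-right patterning, was at 18.8 to 65.9 CPM (median 36.2) and 9.98 to 53.7 CPM (median 17.4) (-0.99 ± 0.21, adjusted p = 0.00193), with lower values at the later stage in 7 of 7 litters. Ermn was at 8.48 to 27.6 CPM (median 11.01) and 3.76 to 10.8 CPM (median 6.397) (-0.94 ± 0.16, adjusted p = 0.000307), and 14 of 16 later embryos lay below all earlier ones.

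Further decreases by the same rule concerned Rin1, a Ras effector (-0.87 ± 0.18), the axon guidance receptor Robo3 (-0.85 ± 0.19), the 5′-nucleotidase Nt5e (-0.81 ± 0.20), Gfra3, a receptor of the GDNF family (-0.79 ± 0.18), the exchange factor Mcf2 (-0.79 ± 0.16) and the neuropeptide Gal (-0.78 ± 0.18), with adjusted p from 0.00146 to 0.00653. These 6 stayed called without any 1 litter and with the litter block. Fabp7, the fatty acid binding protein of radial glia, was called at -0.89 ± 0.26 (adjusted p = 0.0188), but not with the litter block (adjusted p = 0.212). The cytokine Il17d was called at -0.81 ± 0.23 (adjusted p = 0.0167). Single litters decided the calls for Fabp7 without litter N28M30 (adjusted p = 0.0568) and for Il17d without litters N28M05, N28M06 and N28M22 (adjusted p from 0.0504 to 0.117).

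The stage change was then compared with that of embryos from diabetic dams. Those 33 embryos had 3124 of 10711 genes called between the stages (29.2%). Most of their dam codes held a single stage, and more of the later embryos came from D24M15 than from any other code. Stage and litter can thus not be told apart in much of this group. Of the 1602 genes called in normal embryos and tested in both, 1240 (77.4%) had the same sign in diabetic embryos and 566 (35.3%) were called in the same direction, while 30 were called in the opposite one. Over all 10548 genes tested in both, 57.6% had the same sign and 2165 (20.5%) were called in diabetic embryos with the sign they had in normal ones. The globins rose in diabetic embryos by 5.04 ± 0.69 (Hbb-y), 5.11 ± 0.67 (Hba-x) and 3.89 ± 0.59 (Hbb-bh1) on the log2 scale, and the test of the difference between the conditions gave adjusted p = 0.435, 0.179 and 0.228. Nppa (1.97 ± 0.39), Myl2 (1.54 ± 0.28), Slc7a3 (-1.39 ± 0.22) and Cyp26b1 (1.73 ± 0.22) changed in the same direction, and the differences from normal embryos were not called.

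The test of the difference itself, an interaction of stage and condition over 66 embryos, called 984 of 11304 genes (8.7%). With the litter as a block it called 1839. The differences carry the limit just given for litter and stage in diabetic embryos. Myl7 rose by 1.34 in diabetic and 0.42 in normal embryos (log2 difference, normal minus diabetic, -0.91 ± 0.25, adjusted p = 0.0204). Actc1 rose by 0.86 in diabetic embryos (adjusted p = 0.00337) and was not called in normal ones (difference -0.81 ± 0.27, adjusted p = 0.0438). Hoxb3 rose in normal embryos and fell in diabetic ones (-0.57, adjusted p = 0.0137; difference 0.99 ± 0.23, adjusted p = 0.00841). The imprinted genes Peg3 (0.54), Sgce (0.75), Zim1 (0.92) and Kcnq1ot1 (0.76) had positive differences. The 5 called genes with the largest difference on each side included the small RNA Scarna9 (-1.48), the vascular peptide Adm (-1.13) and the matrix protein Lum (-1.08) on the negative side and the FGF feedback inhibitor Spry4 (1.40), the chromatin remodeler Srcap (1.52, uncertain because 100% of the words at its 3′ end occur in 1 other gene) and the mannosidase Man1a (1.45) on the positive side.

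**Figure D5:**
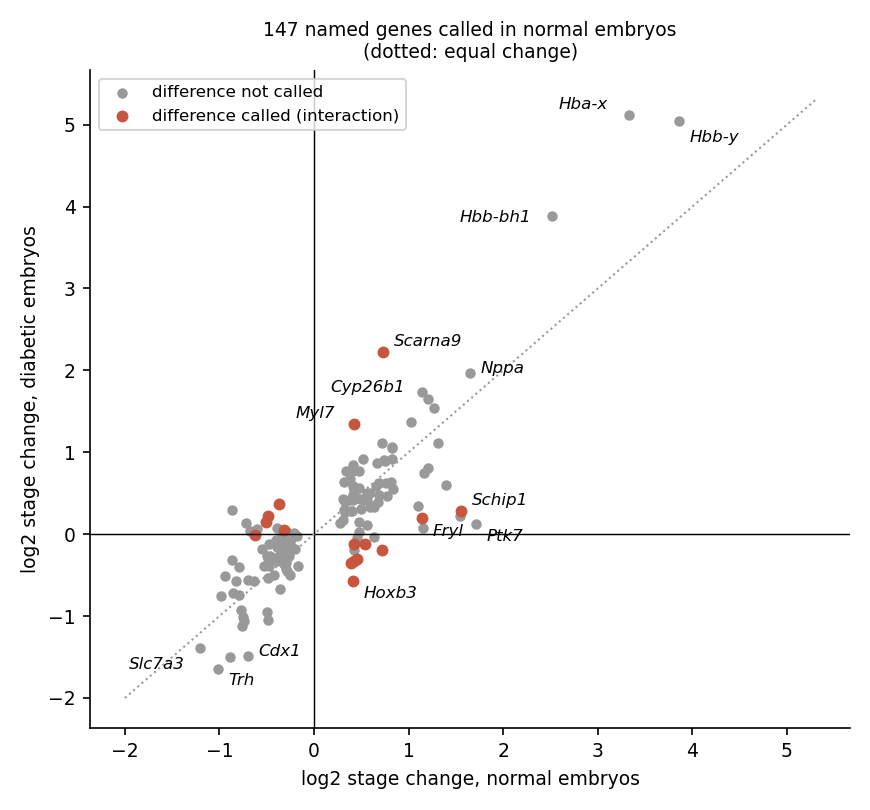
Log2 stage change (7–9 over 5–6 somite pairs) in embryos from normal dams (horizontal axis) and from diabetic dams (vertical axis) for the 147 genes named or listed here that were called in normal embryos and tested in both. Red points are the 16 genes whose difference between the conditions was called; 126 of the 147 have the same sign, and the 3 globins lie above the dotted line of equal change, a difference that was not called.

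In the yolk sacs paired with the normal embryos by code, 785 of 10013 genes were called between the stages (7.84%). The test of the difference between embryo and yolk sac, with 66 libraries, called 5 of 11507 genes (0.0435%), and 1390 had an unadjusted p under 0.05. This fit held no term for the conceptus, so it did not use the pairing of embryo and yolk sac. With the conceptus as a block 2 genes were called, with no filter 1, and with DESeq2's Wald test 40. Whether the genes named below were among those calls is not reported here. Of the 5 genes called in the main fit, 4 met the rule for naming, and their values are log2 differences of the stage change, embryo minus yolk sac. They were Lef1 (1.87 ± 0.40, adjusted p = 0.04801), Sh2b2 (2.60 ± 0.56), Dusp9 (-0.73 ± 0.16) and Ephx2 (-0.94 ± 0.21, adjusted p = 0.0495). Lef1 and Sh2b2 had too few counts in the yolk sac to be tested there alone.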

How the data were processed

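Embryo and yolk sac RNA had been sequenced with a 3′ end kit that adds unique molecular identifiers. Per the submitters' processing notes the authors used STAR, HTSeq and the mm10 genome, and they collapsed reads by identifier. Versions, annotation and strand setting are not given in the sources used here. The authors deposited raw counts per gene for each library, and 33 libraries were used for the main comparison, with the depth given above, which limits the precision for low genes. The deposited table also pools the other libraries of the series.

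Genes were filtered with filterByExpr (minimum count 10) and the stages compared with edgeR 4.0.16 (quasi-likelihood test, TMM, R 4.3.3), and p was adjusted by Benjamini and Hochberg. Limma 3.58.1 and DESeq2 1.42.0 served as alternatives. SE is the fold change divided by the root of F. Groups came from the labels for condition, tissue and somite pairs. The litter was taken from the dam code in the titles, which no source spells out. All embryos of a code had the same maternal glucose label, which differed between the 10 codes, and they correlated (consensus correlation 0.177). The litter was fitted as a block in the second fit. The differences between conditions and tissues were interaction terms, fitted without a term for litter or conceptus unless a block is named. Library measures were compared with two-sided permutation tests (100000 resamples). Intervals and p-values reflect the spread between these embryos.

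Named genes were the 15 called genes with the largest change in each direction that averaged 10 or more normalized counts in either stage and had the same direction with the litter block (3 predicted genes were passed over), the called members of the gene lists, uncalled members where an account needs them, and the 5 called genes with the largest interaction in each direction. A few genes that met these rules are not reported here. The members and lists were chosen with earlier results of these data known. Symbols missing from the deposit and coordinates came from GENCODE M21 (GRCm38): 25646 of 47643 genes took their symbol from it and 405 had none. RefSeq promoter windows matched Hbb-y, Hba-x and Nppa, and Hbb-bh1 had none. The duplicate labelled as a batch control was left out. It differed from its original by less than the sampling noise (chi-square per degree of freedom 0.85, at least 2.17 in other pairs of a stage). On simulated counts for this comparison (10696 genes), 81% of genes changed 1.5-fold and 100% of those changed 2-fold were recovered. Unchanged genes made up 7.18% of the calls. The simulated libraries were independent and held no litter effect, so these rates do not cover embryos that share a litter.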

Additional observations from a re-analysis of the deposited data

Results flagged for a closer look

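These genes stand out because their stage change differed between 2 groups by a test of the difference itself (edgeR's quasi-likelihood interaction, adjusted over all genes tested). Values are log2 stage changes in normal minus diabetic embryos. Most diabetic litters held a single stage, so stage and litter can not be told apart in much of that group. Of the muscle genes, Actc1 differed by -0.81 and Myl7 by -0.91. Of the respiratory chain, Atp5k differed by -0.70, Cycs by -0.73 and Ndufb8 by -0.36. The difference was -0.61 for Hhex and -0.52 for Dusp9. It was 0.99 for Hoxb3, 0.76 for Lef1, 0.66 for Smo and 0.95 for Fryl. The imprinted genes Kcnq1ot1, Peg3, Sgce and Zim1 differed by 0.76, 0.54, 0.75 and 0.92. Schip1, whose 3′ end sequence is shared with 1 other gene, differed by 1.285.

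The 5 largest differences on the negative side that met the rule for naming were Scarna9 (-1.48), Adm (-1.13), Sfn (-1.09), Trib3 (-1.09) and Lum (-1.08). On the positive side they were Apba3 (1.68), Klhl29 (1.58), Srcap (1.52), Man1a (1.45) and Spry4 (1.40). The 3′ end of Srcap, like that of Schip1, lies wholly in 1 other gene, so its value is uncertain. All adjusted p in this comparison lay between 0.00581 and 0.0487.

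Between embryo and yolk sac of normal concepti, the log2 stage change differed by 2.60 for Sh2b2, 1.87 for Lef1, -0.73 for Dusp9 and -0.94 for Ephx2, with adjusted p of 0.048 for the first 3 and 0.0495 for Ephx2. That fit did not use the pairing of embryo and yolk sac, and 2 genes were called with the conceptus as a block. Groups of 16 and 17 embryos are too large for the test of single outlying samples, which was not applied.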

How the results depend on the processing

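The number of genes called higher, 656, became 1011 with the litter as a replicate block, 1030 with the title number as a covariate, 177 with the erythroid markers as a covariate, 143 with somite number as a linear term, 56 with counts summed per litter and stage, 40 for 8–9 against 5 somite pairs and 399 without embryos N24M21E and N28M06D. The number called lower, 959, became 287 with the erythroid markers, 229 with the linear term, 68 with summed counts, 20 for 8–9 against 5 pairs and 516 for 7 against 6 pairs. Leaving out each litter gave 200 to 811 genes higher and 330 to 1102 lower, the fewest without N28M06. The difference between normal and diabetic embryos (984 genes) gave 438 with no filter and 1839 with the litter as a replicate block. The difference between embryo and yolk sac (5 genes) gave 1 with no filter, 2 with the conceptus as a replicate block and 40 with DESeq2. The cause of these moves was not tested, and the erythroid markers rose with stage themselves. Other settings stayed within 1.5 times the counts above, and DESeq2 shared 1602 calls.

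The direction turned in 3 cases. Dnmt3b went to 0.016 and Hoxc9 to -0.16 for 7 against 6 pairs, and Hbb-bh1 to -0.095 with the erythroid markers, of which it is one, as a covariate. None of the 3 was called there. Of 149 called genes of the lists and of the rule for naming, 149 stayed called with DESeq2, 124 with the replicate block, 119 with no filter, 83 without litter N28M06, 67 with the linear term, 48 for 7 against 6 pairs, 39 with the erythroid markers, 29 with summed counts and 21 for 8–9 against 5 pairs. The 2 settings that leave out embryos N24M21E and N28M06D were chosen after seeing the data. Genes near the filter are limited by depth: with all libraries thinned to the shallowest, 10078 genes were tested, 539 of them called higher and 803 lower.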
